A study of Mus musculus with 6 samples.

Results

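The genes described here make fatty acids in liver: 8 enzymes, carriers and accessory proteins (Slc25a1, Acly, Acss2, Acaca, Acacb, Fasn, Thrsp and Pnpla3) and the 2 transcription factors that drive them, Srebf1 and Mlxipl. The members were given as a list of 10 symbols, all of which were found once among the 56350 gene IDs of the count table, and all 10 passed the filter on low counts that kept 16051 genes. RNA came from mouse liver, with 3 libraries of wild-type animals (WT) and 3 of animals with a hepatocyte-specific knockout of Atg14 (HepKO), a gene needed to start autophagosomes. The labels state neither strain, age, sex and diet nor the Cre driver or the hour of collection. Whether each library is a different animal is also unstated, and p-values therefore reflect only how these libraries vary. The comparison asks how the lipogenic genes differ in liver whose hepatocytes lack Atg14.

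De novo lipogenesis turns sugar carbon into fat. Citrate leaves the mitochondrion through SLC25A1, ATP citrate lyase (ACLY) splits it into acetyl-CoA, acetyl-CoA carboxylase makes malonyl-CoA and fatty acid synthase (FASN) builds palmitate from it. Insulin acts through SREBP1, encoded by Srebf1, and sugar acts through ChREBP, encoded by Mlxipl, to raise transcription of these enzymes. Both factors are regulated mainly as proteins, by cleavage or by nuclear entry, which RNA counts do not show. Counts per gene also do not separate the SREBP-1a and SREBP-1c transcripts of Srebf1, or the long and short forms of ChREBP.

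Libraries held 33145684 to 48951937 counts. Atg14 was at 20.9 to 22.2 CPM (counts relative to the library's total, after TMM scaling, the trimmed mean of M-values) in WT and 5.66 to 8.45 CPM in HepKO. HepKO replicate 1 stood apart by sex-linked RNA: Xist, transcribed from the inactive X chromosome, was at 523 CPM there and at 0.0676 to 0.49 CPM in the other 5 libraries, and its 4 Y-linked genes were at 0.0517 to 0.103 CPM. WT replicate 3 stood apart by the lipogenic genes themselves; its values are given with each gene. Results are therefore given with and without these libraries. Removing WT replicate 3 was prompted by the members' own values, so those calls are no independent evidence. Fold changes depend on scaling: the median log2 fold change of all tested genes was 0.01 with TMM and 0.52 with library totals.

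Promoter letters are shown for 4 members to set the sequence beside the changes: Thrsp had the largest fall of the list, Srebf1 is the regulator, Fasn was low in WT replicate 3, and Slc25a1 changed least. Each line gives the 250 bases before the annotated start, 5′ to 3′ on the gene's strand (all 4 are on the minus strand), from RefSeq on GRCm38.p6, the assembly also called mm10. Capitals mark E boxes (CANNTG) and CCAAT or its reverse ATTGG (the letters that NF-Y, a common SREBP partner, reads). CANNTG is the general form of the sites of bHLH factors, the class of SREBP1 and ChREBP. Not every CANNTG is a site of these factors.
Thrsp (chr7:97417551-97417800): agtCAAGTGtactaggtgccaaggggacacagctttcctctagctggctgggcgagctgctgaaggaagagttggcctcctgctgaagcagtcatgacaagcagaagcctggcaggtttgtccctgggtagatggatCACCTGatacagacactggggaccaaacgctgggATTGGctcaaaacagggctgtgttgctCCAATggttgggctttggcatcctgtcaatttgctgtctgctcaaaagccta
Srebf1, the third of 3 annotated starts (chr11:60210472-60210721): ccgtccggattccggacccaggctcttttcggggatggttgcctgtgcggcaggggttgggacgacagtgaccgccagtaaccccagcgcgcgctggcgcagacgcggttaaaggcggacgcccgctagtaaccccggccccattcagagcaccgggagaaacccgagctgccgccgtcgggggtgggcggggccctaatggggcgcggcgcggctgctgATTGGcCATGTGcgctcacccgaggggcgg
Fasn (chr11:120824548-120824797): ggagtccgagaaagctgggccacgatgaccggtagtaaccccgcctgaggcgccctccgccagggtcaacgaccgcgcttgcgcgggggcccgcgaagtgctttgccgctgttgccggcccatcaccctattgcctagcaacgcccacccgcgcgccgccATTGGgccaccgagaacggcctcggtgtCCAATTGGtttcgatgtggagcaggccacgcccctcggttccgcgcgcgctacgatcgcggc
Slc25a1 (chr16:17928220-17928469): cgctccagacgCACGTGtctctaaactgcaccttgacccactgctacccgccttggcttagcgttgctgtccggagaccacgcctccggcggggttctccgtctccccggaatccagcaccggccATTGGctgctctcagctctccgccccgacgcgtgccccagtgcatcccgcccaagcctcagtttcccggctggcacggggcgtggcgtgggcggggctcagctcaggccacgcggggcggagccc

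Windows from 250 bases before to 50 after the start were searched on both strands for the 10 members, which have 13 annotated starts. The only windows of Acaca (chr11:84195188-84195487) and Acacb (chr5:114165268-114165567) lie inside the genes, which begin at 84129672 and 114146535. The shares below therefore leave out the 5′ ends of both genes. CCAAT was in 10 of 13 windows (76.9%), against 37.4% of all 32851 promoter windows in the table. CANNTG was in 11 of 13 (84.6%) against 72.3%, and its palindrome CACGTG, which is one form of it, was in 2 windows, those of Slc25a1 and the first Mlxipl start, against 7.15%. GGGCGG, the GC box, was in 7 (53.8%) against 35.7%. The sterol response core TCACNCCAC was in 1 window, the second Mlxipl start, against 1.24%. A full carbohydrate response element, searched as E box-like ends 5 bases apart, was in 0 of 13 and in 0.0457% of all windows. In the Fasn window a CCAAT box, an E box and a reverse CCAAT box overlap, beginning 62, 61 and 59 bases before the start. All lie in the letters CCAATTGG, so this E box match follows from the overlapping CCAAT boxes. In the third Srebf1 window ATTGG begins 30 bases before the start and CATGTG 24 bases before it. In the Thrsp window the 2 CCAAT matches begin 79 and 52 bases before the start. These are matches of letters in fixed windows, without evidence of binding in these livers.

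**Figure D1:**
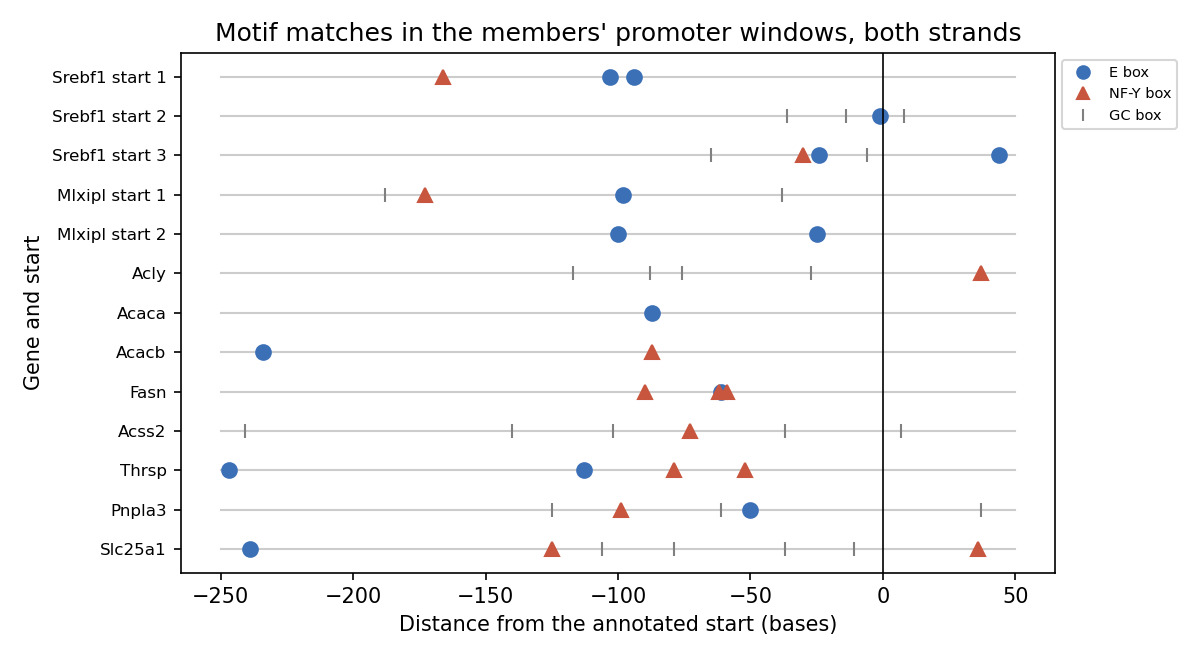
Positions of motif matches in the 13 promoter windows of the 10 genes; the x axis is the distance in bases of a match's first letter from the annotated start, each row is 1 start, and symbols mark E boxes, NF-Y boxes (CCAAT) and GC boxes. NF-Y boxes were found in 10 of 13 windows, and in the third Srebf1 window and those of Fasn and Thrsp at least 1 lies within 79 bases before the start.

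Both regulators were lower in HepKO liver. Srebf1 (ENSMUSG00000020538.15, chr11:60199089-60222581, minus strand) was at 272, 307 and 285 CPM in WT libraries 1, 2 and 3, against 139, 113 and 91.7 CPM in HepKO libraries 1, 2 and 3. The groups did not overlap, and all 3 WT libraries were close together. Srebf1 fell 2.52-fold (log2 fold change -1.33 ± 0.16 SE, adjusted p = 6.52e-04, edgeR quasi-likelihood test). Mlxipl (ENSMUSG00000005373.13, chr5:135089890-135138382, plus strand) was at 185, 203 and 215 CPM in WT and 121, 107 and 129 CPM in HepKO, again without overlap. Mlxipl fell 1.68-fold (log2 fold change -0.75 ± 0.11, adjusted p = 0.00157), but with library totals it was not called (log2 fold change -0.24, adjusted p = 0.0895). Srebf1 kept its call with library totals (-0.82, adjusted p = 0.00346). Alongside them the hepatocyte markers were lower with TMM: 11 of 12 fell, where 18.7% of all tested genes fell. Their summed level ranged from 109000 to 134000 CPM in WT and from 47400 to 59700 CPM in HepKO. Alb was the largest part of that sum, with a mean of 78700 CPM in WT and 33800 CPM in HepKO. In whole tissue, fewer hepatocytes and less of an RNA per hepatocyte cannot be told apart.

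**Figure D2:**
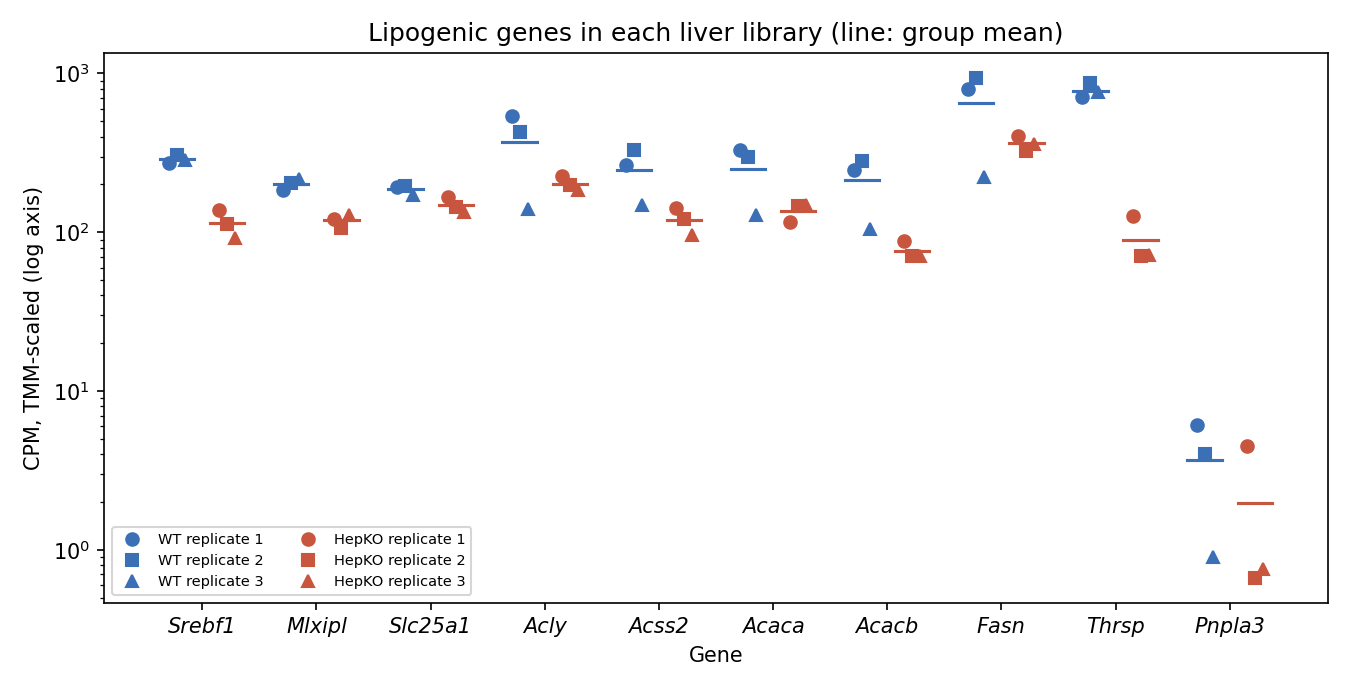
Level of each of the 10 genes in each library, in TMM-scaled CPM on a log axis; blue symbols are WT and red symbols HepKO, the symbol shape gives the replicate number and the line the group mean (n = 3). Srebf1, Mlxipl, Thrsp and Slc25a1 are tight among WT libraries, while WT replicate 3 (blue triangle) lies at the level of HepKO or below it for Acly, Acaca and Fasn.

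The steps that supply cytosolic acetyl-CoA changed unevenly. Slc25a1, the mitochondrial citrate carrier (ENSMUSG00000003528.15, chr16:17925223-17928219, minus strand), was at 194, 197 and 171 CPM in WT and 166, 145 and 134 CPM in HepKO. The lowest WT library lay just above the highest HepKO library. The change was small and near the threshold (log2 fold change -0.34 ± 0.11, adjusted p = 0.0497), with a range of 0.012 to 0.25 over the alternatives. Leaving out any WT library or HepKO replicate 2 or 3 ended the call (adjusted p = 0.0665 to 0.181), and with library totals the sign turned (0.17, adjusted p = 0.25). Acly (ENSMUSG00000020917.17, chr11:100476353-100528000, minus strand) was at 537, 427 and 140 CPM in WT and 226, 198 and 184 CPM in HepKO. WT replicate 3 was below every HepKO library, so the groups overlapped. Acly was not called (log2 fold change -0.86 ± 0.41, adjusted p = 0.133), while without WT replicate 3 it was (-1.23 ± 0.14, adjusted p = 0.00186). Without WT replicate 1 its log2 fold change was -0.49 (adjusted p = 0.39). Acss2, which makes acetyl-CoA from acetate (ENSMUSG00000027605.18, chr2:155517948-155585724, plus strand), was at 264, 332 and 149 CPM in WT and 142, 122 and 96 CPM in HepKO. All WT libraries were higher, WT replicate 3 only slightly. Acss2 fell 2.07-fold (log2 fold change -1.05 ± 0.28, adjusted p = 0.0198). That call ended with library totals (adjusted p = 0.144) and when any of WT replicates 1 or 2 or HepKO replicates 2 or 3 was left out (adjusted p = 0.0558, 0.0619, 0.0591 and 0.0693). Exons of Acss2 overlap those of 3 antisense genes, Ggt7, Gss and Acss2os, over 1.94% to 3.89% of its exon bases each, and whether the counting used strand is unstated.

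The carboxylases make malonyl-CoA, in the cytosol for lipogenesis (ACC1, from Acaca) and at the mitochondrial surface, where it restrains fatty acid import (ACC2, from Acacb). Acaca (ENSMUSG00000020532.18, chr11:84129672-84401651, plus strand) was at 328, 297 and 129 CPM in WT and 116, 146 and 148 CPM in HepKO. WT replicates 1 and 2 were the highest, and WT replicate 3 lay among the HepKO libraries. Acaca was not called (log2 fold change -0.88 ± 0.31, adjusted p = 0.0561), and was without WT replicate 3 (-1.17 ± 0.14, adjusted p = 0.00202). Without any other single library it was -0.95 to -0.65 (adjusted p = 0.104 to 0.172). With DESeq2 it was called on all 6 libraries (adjusted p = 0.00796). Acacb (ENSMUSG00000042010.16, chr5:114146535-114250761, plus strand) was at 248, 282 and 105 CPM in WT and 88.2, 70.8 and 70.4 CPM in HepKO. WT replicate 3 was the lowest WT library here too but stayed above all HepKO libraries. Acacb fell 2.77-fold (log2 fold change -1.47 ± 0.33, adjusted p = 0.00943) and kept its call under every alternative run. The ratio of Acacb to Acaca counts, which no scaling alters, was 0.755, 0.95 and 0.817 in WT and 0.759, 0.486 and 0.476 in HepKO, where HepKO replicate 1 was within the WT range.

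Fasn, the synthase itself (ENSMUSG00000025153.9, chr11:120805846-120824547, minus strand), showed the widest WT spread of the abundant members. It was at 797, 937 and 224 CPM in WT and 406, 325 and 359 CPM in HepKO. WT replicate 3 was the lowest of all 6 libraries, below every HepKO library. Fasn was not called over 6 libraries (log2 fold change -0.84 ± 0.44, adjusted p = 0.167). Without WT replicate 3 it was 1.24 ± 0.15 lower on the log2 scale (adjusted p = 0.00212), but without WT replicate 2 the log2 fold change was -0.45 (adjusted p = 0.478) and without WT replicate 1 it was -0.68 (adjusted p = 0.339).

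Thrsp changed most. It encodes Spot 14, a small protein of lipogenic tissues that acts with acetyl-CoA carboxylase and is induced by thyroid hormone and carbohydrate (ENSMUSG00000035686.8, chr7:97412938-97417730, minus strand). Thrsp was at 711, 866 and 765 CPM in WT and 127, 71 and 71.5 CPM in HepKO. WT replicate 3 was in the middle of the WT libraries, unlike for the enzymes, and the groups were far apart. Thrsp fell 8.69-fold (log2 fold change -3.12 ± 0.25, adjusted p = 1.64e-04), or by 2.61 on the log2 scale with library totals (adjusted p = 2.04e-04).

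Pnpla3, a lipid droplet protein of the patatin family and a known SREBP1 target, was the least abundant member (ENSMUSG00000041653.5, chr15:84167837-84187236, plus strand). It had 182, 145 and 31 counts in WT and 261, 30 and 30 counts in HepKO, or 6.15, 4.04 and 0.907 CPM and 4.49, 0.669 and 0.762 CPM. WT replicate 3 was near the low HepKO libraries, and HepKO replicate 1 near the high WT libraries. Pnpla3 was not called (log2 fold change -0.88 ± 0.86, adjusted p = 0.454). Without WT replicate 1, HepKO replicate 2 or HepKO replicate 3 the log2 fold change of Pnpla3 shrank to -0.32, -0.48 and -0.51 (adjusted p = 0.827, 0.731 and 0.716). Without HepKO replicate 1 it was called (-2.37 ± 0.76, adjusted p = 0.0474), and without both that library and WT replicate 3 the log2 fold change was -2.83 ± 0.39 (adjusted p = 0.00375). Of 6 tested genes of the PNPLA family, Pnpla3 included, 2 fell and 0 rose: Pnpla8 (-0.73 ± 0.09, adjusted p = 7.87e-04) and Pnpla7 (-0.35 ± 0.11, adjusted p = 0.0452). With library totals 0 fell and 1 rose. Of all tested genes 18.7% fell and 19.5% rose, or 5.84% and 46.4% with library totals. Pnpla2, the adipose triglyceride lipase gene, was at 67.6 to 89.3 CPM in WT and 66.8 to 79.8 CPM in HepKO.

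Counted together, 6 of the 10 genes fell (Srebf1, Mlxipl, Slc25a1, Acss2, Acacb and Thrsp) and 0 rose, where 18.7% of all tested genes fell and 19.5% rose. The groups did not overlap for the same 6 genes, against 26.4% of tested genes that were lower without overlap. The median log2 fold change of the 10 was -0.88. Without WT replicate 3, 8 of 10 fell (12.2% of all genes) with a median of -1.27. Without HepKO replicate 1, 7 fell (17.5% of all genes) with a median of -1.08, and without both libraries all 10 fell (14.5% of all genes) with a median of -1.40. With library totals 3 fell, Srebf1, Acacb and Thrsp (5.84% of all genes), and the median was -0.38 against 0.52 for all genes. With no filter on low counts 8 fell (10.3% of all genes): Acly, Acaca and Fasn were then called (adjusted p = 0.00417, 3.81e-04 and 0.00839) and Slc25a1 was not (0.0578). No member was called higher under any alternative run.

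**Figure D3:**
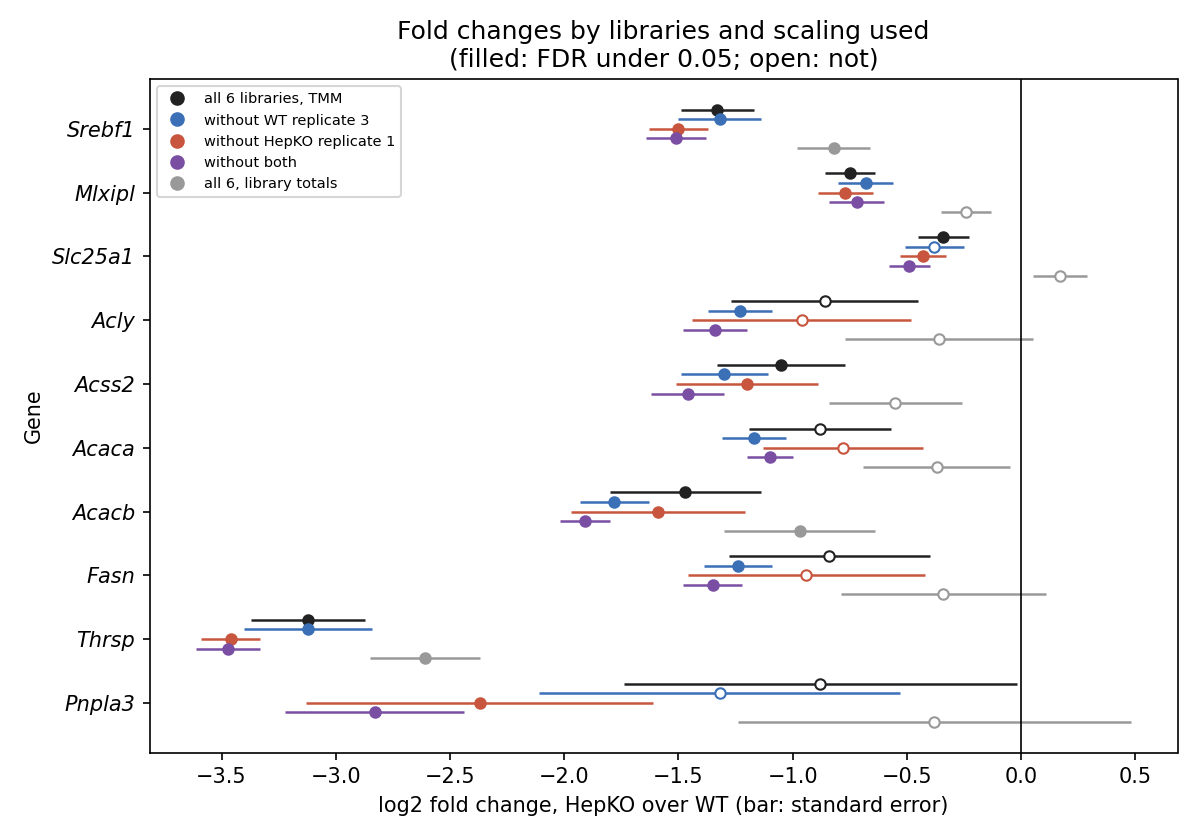
log2 fold change of each gene, HepKO over WT, with its standard error, from all 6 libraries, without WT replicate 3, without HepKO replicate 1, without both, and from all 6 with library totals in place of TMM; filled points passed an adjusted p of 0.05. The standard errors of Acly, Acaca and Fasn shrink when WT replicate 3 is left out (for Fasn from 0.44 to 0.15), and Slc25a1 crosses 0 with library totals (0.17).

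The WT libraries split the members by behaviour. In WT replicate 3, 6 members (Acly, Acaca, Acacb, Fasn, Acss2 and Pnpla3) were at least 1.5-fold below the mean of WT replicates 1 and 2, by factors of 3.43, 2.43, 2.52, 3.86, 2.01 and 5.61. Of all tested genes 13.6% were, and of the 9398 with a mean of at least 5 CPM in those 2 libraries, 3.67%; Pnpla3 lies just above that level. Srebf1, Mlxipl, Thrsp and Slc25a1 differed little, with factors of 1.01, 0.902, 1.03 and 1.14. Within WT the highest library exceeded the lowest 4.18-fold for Fasn and 3.83-fold for Acly, but 1.13-fold for Srebf1 and 1.16-fold for Mlxipl. Within HepKO the same ratio was 1.2 to 1.78 for every member except Pnpla3 (6.72).

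Ratios of counts within a library show the same split without any scaling. Fasn over Srebf1 was 2.93 and 3.05 in WT replicates 1 and 2, 0.787 in WT replicate 3, and 2.93, 2.89 and 3.91 in HepKO. The lowest HepKO library was just below WT replicate 1 and the highest was above both of those WT libraries, and WT replicate 3 alone was low. Thrsp over Srebf1 was 2.62, 2.82 and 2.68 in WT and 0.914, 0.631 and 0.78 in HepKO, so Thrsp was lower relative to Srebf1 in every HepKO library. Thrsp over Fasn was 0.892, 0.925 and 3.41 in WT and 0.312, 0.218 and 0.199 in HepKO. Acly over Slc25a1 was 2.77, 2.17 and 0.822 in WT and 1.36 to 1.37 in HepKO. The members together took 0.293%, 0.331% and 0.18% of all WT counts, by replicate, against 0.182%, 0.156% and 0.152% of those in HepKO. With 3 libraries a group, an exact 2-sided permutation test of such a ratio cannot give a p below 0.1, so none was run.

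**Figure D4:**
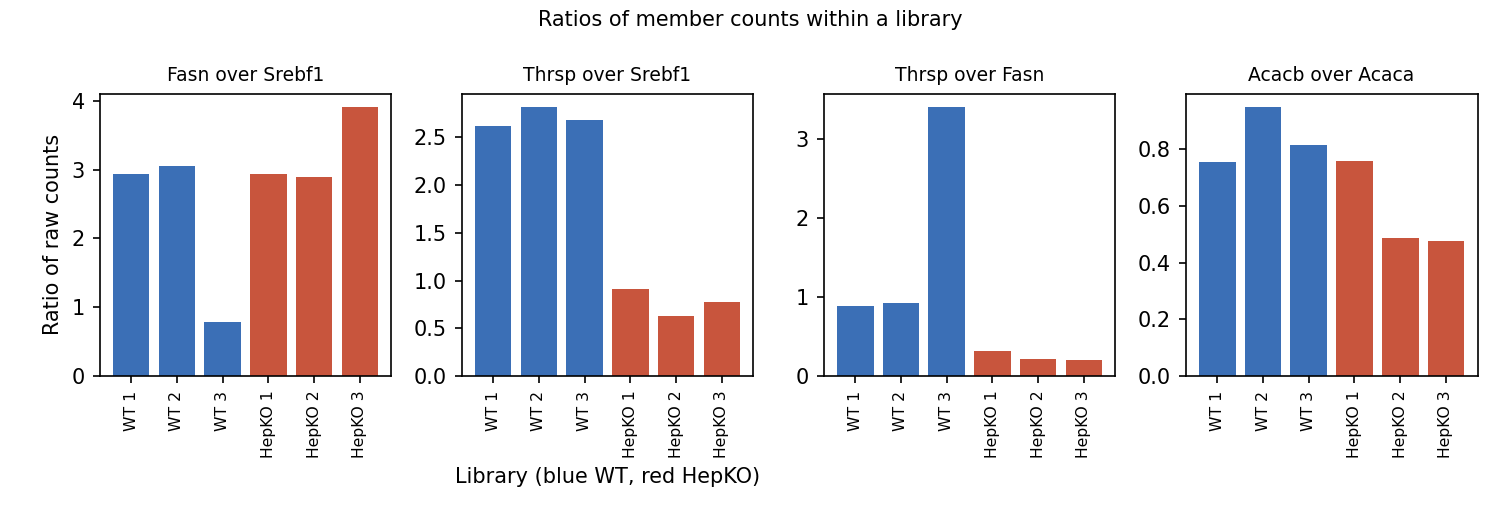
Ratios of raw counts of 2 genes within each library (bars start at 0; blue WT, red HepKO; no scaling enters). Fasn over Srebf1 is 0.787 in WT replicate 3 and 2.89 to 3.91 in the other 5 libraries, and Thrsp over Srebf1 is 2.62 to 2.82 in WT and 0.631 to 0.914 in HepKO.

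Levels of different genes were compared as CPM per kilobase of annotated exon. In WT, Thrsp was highest at 357 ± 36.1 (SD, n = 3), followed by Slc25a1 (86.5 ± 6.57), Acly (69.7 ± 38.8), Fasn (59.6 ± 34.5), Srebf1 (51.1 ± 3.18) and Mlxipl (36.3 ± 2.71). Slc25a1 was above Srebf1 and Srebf1 above Mlxipl in every WT library, while Acly and Fasn, low in WT replicate 3, have no firm place among them. Acss2 (24.4 ± 9.11), Acacb (22 ± 9.74) and Acaca (14.7 ± 6.28) overlapped across libraries. Within every WT library Acss2 was above Acacb and Acacb above Acaca, though in WT replicate 1 Acss2 and Acacb were close (26 and 25.7). Pnpla3 was lowest (2.39 ± 1.70). In HepKO, Slc25a1 was first (68.5 ± 7.53), then Thrsp (41 ± 14.6), Acly (38.3 ± 4.05) and Fasn (33.2 ± 3.68). Acly was above Fasn in every HepKO library, and Thrsp, high in HepKO replicate 1 and level with Fasn in HepKO replicate 3, has no firm place beside them. Mlxipl (21.5 ± 1.98) and Srebf1 (20.3 ± 4.17) did not differ beyond their spread in HepKO, whereas Srebf1 was above Mlxipl in every WT library. Exon totals join the exons of all transcripts of a gene, which lowers values per kilobase, as for Acaca (17074 bases) and Acss2 (10163 bases). The places of the genes therefore depend on the lengths used.

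Of 11 tested genes that control SREBP, 4 fell and 1 rose (median log2 fold change -0.25), and the rise is that of Insig2 alone. With library totals 2 fell, 6 rose and the median was 0.26, where 46.4% of all tested genes rose and 5.84% fell. Lpin1, a phosphatidate phosphatase that also restrains nuclear SREBP, had 444, 281 and 401 CPM in WT and 61.6, 49.1 and 45.5 CPM in HepKO and fell 7.20-fold (log2 fold change -2.85 ± 0.20, adjusted p = 1.31e-04). Rxra, the partner of the liver X receptors, fell (-0.96 ± 0.16, adjusted p = 0.00285), as did Scap, which escorts SREBP to the Golgi (-0.56 ± 0.10, adjusted p = 0.00394, but -0.05 with library totals, adjusted p = 0.694). Insig2, which holds SREBP in the endoplasmic reticulum, rose (0.48 ± 0.13, adjusted p = 0.0232), though not when WT replicate 2 or 3 or HepKO replicate 2 or 3 was left out (adjusted p = 0.052 to 0.0868) or with the replicate number as a block (0.0578). Insig1, itself a SREBP target, was at 412, 331 and 167 CPM in WT and 282, 205 and 146 CPM in HepKO, with WT replicate 3 among the HepKO libraries (log2 fold change -0.52 ± 0.34, adjusted p = 0.263). Srebf2, which drives cholesterol synthesis, had a log2 fold change of 0.07 ± 0.13 (adjusted p = 0.695), and 0.58 with library totals (adjusted p = 0.00894). Nr1h3, the liver X receptor that activates Srebf1, had -0.18 ± 0.12 (adjusted p = 0.252), and 0.33 with library totals (adjusted p = 0.0424). Srebf1 over Srebf2 counts were 7.16 to 9.21 in WT and 2.66 to 3.79 in HepKO.

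Most genes that bring sugar into the pathway fell. Of 10 glucose and fructose entry genes, 9 fell and 0 rose (median -1.46), and with library totals 8 fell and 1 rose. For this list and those below, the shares of all tested genes were 18.7% fallen and 19.5% risen, or 5.84% and 46.4% with library totals. The glucose transporter Slc2a2 (-1.38 ± 0.11, adjusted p = 1.65e-04), the bifunctional enzyme Pfkfb1 (-1.85 ± 0.16, adjusted p = 2.13e-04) and the fructose transporter Slc2a5 (-1.97 ± 0.18, adjusted p = 2.79e-04) fell. Among 10 genes of ChREBP's partner and targets, 7 fell and 1 rose, at a median of -0.84 (4 and 1 with library totals). Pklr, the liver pyruvate kinase gene and a classical ChREBP target, fell from 1190, 746 and 475 CPM to 211, 253 and 316 CPM (-1.63 ± 0.32, adjusted p = 0.00546). Txnip fell (-0.85 ± 0.20, adjusted p = 0.0113, but 0.18 with library totals). Mlx, the dimer partner of ChREBP, fell slightly (-0.38 ± 0.10, adjusted p = 0.0225) and had the opposite sign with library totals (0.13, adjusted p = 0.387). The call of Mlx ended without WT replicate 2 or 3 or HepKO replicate 1 or 3 (adjusted p = 0.0521 to 0.122). Among 14 insulin signalling genes, 7 fell and 1 rose, at a median of -0.30 (1 and 5 with library totals). Foxo1 (-1.31 ± 0.18, adjusted p = 0.00129) and Rptor, the raptor subunit of mTORC1 (-0.66 ± 0.09, adjusted p = 0.00115, and 0.192 with library totals), were among those that fell.

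Of 13 tested genes of steps after palmitate, of NADPH supply and of other parts of fatty acid synthesis, 9 fell and 1 rose. Their median was -0.83, and with library totals 6 fell and 2 rose. Scd1, the desaturase that makes oleate, was at 54600, 57900 and 39700 CPM in WT and 9930, 12000 and 10300 CPM in HepKO, and fell (-2.24 ± 0.21, adjusted p = 3.04e-04). Elovl5 (-1.71 ± 0.19, adjusted p = 5.82e-04) and Fads2 (-1.28 ± 0.16, adjusted p = 8.56e-04), of polyunsaturated fatty acid synthesis, fell. Elovl6, which extends palmitate, followed the pattern of Fasn, at 319, 333 and 118 CPM in WT and 136, 153 and 162 CPM in HepKO (-0.77 ± 0.34, adjusted p = 0.111). Without WT replicate 3 Elovl6 was called (-1.10, adjusted p = 0.00152), and without WT replicate 2 it was at -0.50 (adjusted p = 0.322). On all 6 libraries Elovl6 was called with DESeq2 (adjusted p = 0.0352) and no filter (0.00318), but not with limma-voom (0.193) or library totals (0.542). Me1, the malic enzyme that makes NADPH for lipogenesis, fell (-1.29 ± 0.30, adjusted p = 0.0121, and 0.0616 with library totals). Pgd, of the pentose phosphate pathway, was at 97.6, 86.5 and 44.8 CPM in WT and 310, 235 and 268 CPM in HepKO and rose (1.83 ± 0.27, adjusted p = 0.00171). Of 12 acetyl-CoA supply genes, 8 fell and 1 rose (median -0.53; library totals, 1 and 1), among them Pcx, the pyruvate carboxylase (-1.17 ± 0.11, adjusted p = 3.33e-04). Of 10 genes that control or oppose the carboxylases, 4 fell and 3 rose (median -0.21; library totals, 2 and 4). Prkaa1, a catalytic subunit of the AMP-activated kinase that inhibits acetyl-CoA carboxylase, rose (0.89 ± 0.12, adjusted p = 0.00131), its regulatory subunit gene Prkag2 fell (-1.0 ± 0.10, adjusted p = 3.26e-04), and Mlycd, which degrades malonyl-CoA, fell (-0.73 ± 0.13, adjusted p = 0.0038, and 0.184 with library totals).

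Few cholesterol genes, which are driven mainly by SREBP2, passed the test. Of 19, 3 fell, Fdps and Stard4 among them, and 0 rose, with a median of -0.04; that share, 3 of 19, is near the 18.7% of all tested genes that fell. With library totals 0 fell, 4 rose and the median was 0.47. The count that fell was 5 without WT replicate 3 and 5 with no filter, where 12.2% and 10.3% of all genes fell. The count that rose was 2 with DESeq2, 3 with no filter and 3 with the block. Of all genes, 3471 of 16051, 3176 of 29794 and 2569 of 16051 rose in those fits. Stard4, a sterol transfer protein gene, fell (-0.91 ± 0.20, adjusted p = 0.00846, and 0.126 with library totals). The call of Fdps (-2.02 ± 0.65, adjusted p = 0.0399) ended when WT replicate 1 or 2 or any HepKO library was left out (adjusted p = 0.0636 to 0.139), with limma-voom (0.123) and with library totals (0.0821). In WT replicate 3, 17 of these 19 genes were the lowest of the 3 WT libraries, against 33.7% of all tested genes. Sqle, the squalene epoxidase, was at 36.3, 13.9 and 1.76 CPM in WT and 47.1, 54.4 and 28.6 CPM in HepKO (1.33 ± 0.79, adjusted p = 0.222). Its value moved with single libraries, to 2.46 without WT replicate 1 (adjusted p = 0.0469) and 0.83 without WT replicate 3 (adjusted p = 0.186), and was 2.19 with limma-voom (0.0575) and 1.32 with no filter (0.0123). Also lowest in WT replicate 3 were 11 of the 13 genes of later steps, NADPH supply and other parts of fatty acid synthesis. So were 8 of the 10 sugar entry genes.

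**Figure D5:**
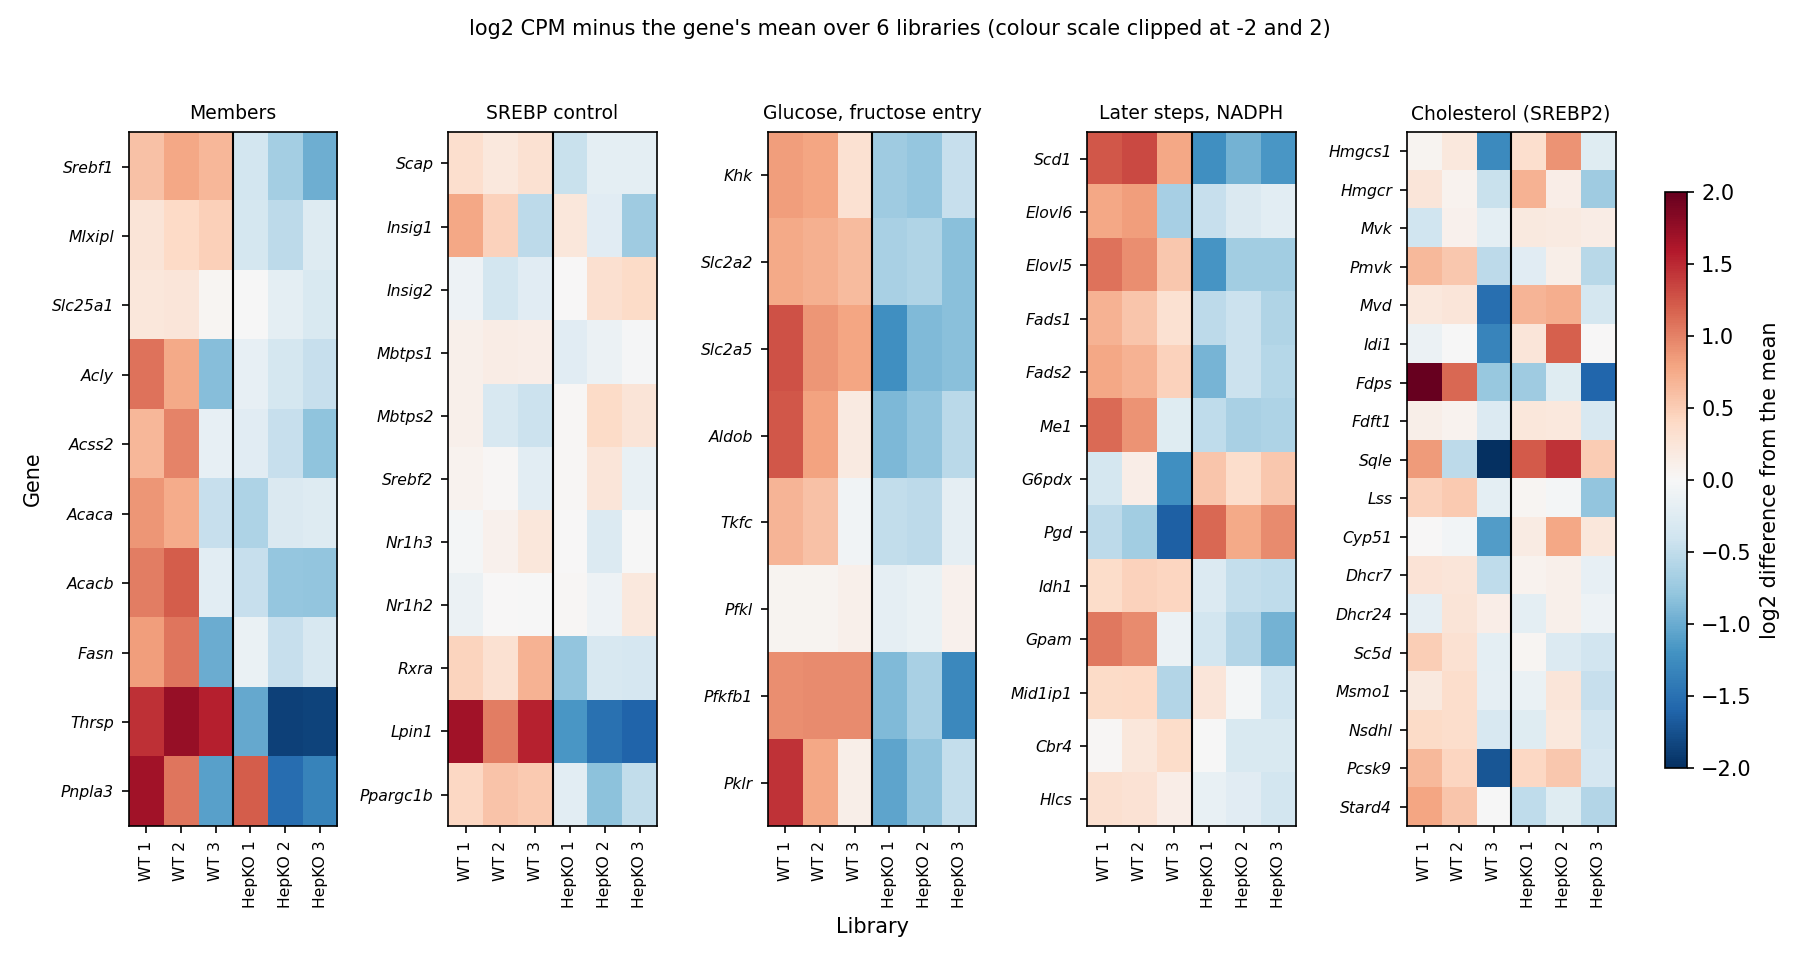
log2 CPM of each gene minus its mean over the 6 libraries (colour, clipped at -2 and 2) for the lipogenic genes and most genes of 4 related lists; columns are libraries, with WT left of the line. WT replicate 3 is low for Acly, Fasn, Acaca, Elovl6, Me1 and most of the cholesterol genes shown, but not for Srebf1, Mlxipl, Thrsp or Lpin1.

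Of 11 genes known to rise in fasted liver, 8 fell and 2 rose in HepKO (median -1.24; library totals, 7 and 3). In WT replicate 3, 8 of the 11 were the highest of the WT libraries, against 32.8% of all tested genes. Igfbp1, a liver gene that insulin represses, was at 48.8, 42.6 and 97.3 CPM in WT and 132, 84 and 112 CPM in HepKO (0.80 ± 0.31, adjusted p = 0.0779). Without WT replicate 3 Igfbp1 was called (1.28, adjusted p = 0.00463), and without WT replicate 2 it was at 0.60 (adjusted p = 0.195). On all 6 libraries Igfbp1 was called with DESeq2 (adjusted p = 0.0186), library totals (0.00849), no filter (0.00189) and the block (0.0395). It was not called with limma-voom (0.0506), median-of-ratios factors (0.0788) or the filter of 1 CPM (0.0649). The feeding state of the animals is unstated, and its part in these values was not tested. Of 8 liver X receptor genes and targets, 5 fell and 1 rose (median -0.62; library totals, 2 and 3).

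Other cell types could add lipogenic RNA to whole liver. Of 10 adipocyte markers, 5 were tested, of which 3 fell and 1 rose, and their summed level was 96.3 to 200 CPM in WT and 42.4 to 74.2 CPM in HepKO. Markers of that list differed widely. Lep had no counts, Adipoq had 7 counts in WT replicate 3 and 0 in the other 5 libraries, and Plin1 had 0 or 1 count in each library. Cfd, the gene of adipsin, was at 12.7, 16.8 and 66.4 CPM in WT and 0, 0.0223 and 0.102 CPM in HepKO. Plin4, a lipid droplet coat protein gene, was at 40.2, 60.5 and 75.4 CPM in WT and 6.78, 19.1 and 11.1 CPM in HepKO, and Lipe, of hormone-sensitive lipase, fell as well (-0.80, adjusted p = 0.0249). Cidea, another lipid droplet gene, was at 20.6 CPM in WT replicate 2 and at most 1.02 CPM in the other libraries, and Fabp4 rose (0.90, adjusted p = 0.0329). Macrophage markers were higher in HepKO, with 8 of 8 called and a summed level of 154 to 304 CPM in WT and 404 to 730 CPM in HepKO. Of 8 stellate cell markers 4 rose (187 to 284 CPM and 509 to 630 CPM), of 7 cholangiocyte markers 4 rose (56.6 to 75.3 CPM and 161 to 586 CPM), and of 7 endothelial markers 1 rose (137 to 169 CPM and 155 to 196 CPM). No gene of those 4 lists fell. The part of cell makeup, and of the sex-linked RNA of HepKO replicate 1, in the members' values was not tested.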

How the data were processed

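PolyA RNA of whole liver was sequenced from a stranded mRNA kit, per the labels' protocols. The authors deposited raw read counts per gene; the build was mm10, and the tools named are STAR 2.7.11a, Subread 2.0.0 with featureCounts, bcl2fastq, and edgeR 3.40.2, per the submitters' processing notes. Annotation release and strand setting were not given in the sources used here. Of 56350 gene IDs, 55480 matched the GENCODE M21 primary assembly annotation (GRCm38, scaffolds included) without version. Genes were filtered with filterByExpr, scaled by TMM and tested by edgeR 4.0.16 (R 4.3.3) with its quasi-likelihood F test (2-sided, Benjamini-Hochberg over all 16051 tested genes, called under 0.05), and the test was tried on simulated counts. SE is the size of the log2 fold change over the square root of F. Alternatives were DESeq2 1.42.0, limma-voom (limma 3.58.1), other scalings and filters, a replicate block and leaving out libraries. Chi-square per degree of freedom between libraries of 1 group was 24.2 to 117, so none was a repeat. Members and lists were chosen with earlier results of these data known. All 10 members are named, with Atg14, textbook regulators, and the 3 genes of smallest p of each list or a selection of them; Igfbp1, Sqle, Pgd, Pnpla2, Pnpla7, Pnpla8 and the adipocyte markers named were chosen after their values were seen. A planned comparison of protein sequences was not made here. Some genes of the lists are not reported here by name; they are in the counts.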

Additional observations from a re-analysis of the deposited data

How the results depend on the processing

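The members' direction was the same under every alternative except for Slc25a1 with library totals (0.17). Of the other genes whose alternatives were tabulated one by one, the sign turned for Nr1h3 (0.33) and Mlx (0.13) with library totals and for Srebf2 without HepKO replicate 2 (-0.04, in a range of -0.04 to 0.16 over fits without 1 library) and without both WT replicate 3 and HepKO replicate 1 (-0.01). With library totals the medians of 4 lists also turned positive: SREBP control (0.26), insulin signalling (0.21), control of the carboxylases (0.30) and cholesterol (0.47). With TMM these medians were -0.25, -0.30, -0.21 and -0.04. The median of all tested genes moved in the same way with the change of scaling, from 0.01 to 0.52. Of all genes, 3006 fell and 3125 rose. With library totals 937 fell and 7442 rose, 3 members fell and their median was -0.38. Requiring a log2 fold change of at least 1 left 922 lower and 2063 higher genes. Without both WT replicate 3 and HepKO replicate 1, an alternative added after seeing the data, 2334 genes fell and 2058 rose, 10 members fell and their median was -1.40. Leaving out 1 library, 4 to 8 members fell, 0 rose, the median ran from -1.27 to -0.74, and 2055 to 2896 genes fell and 2337 to 2816 rose.

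With the replicate number as a block, 5 members fell, as Slc25a1 just missed the threshold (adjusted p = 0.0501), and 2502 genes fell and 2569 rose. Same-numbered libraries did not deviate together (correlations of -0.139, -0.109 and 0.03), so the numbers were not taken as pairing. Depth limits Pnpla3 alone among the members, at 30 to 261 counts a library. With 3 libraries a group, changes near that of Slc25a1 lie at the limit of the test.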
